A study of Mus musculus with 2 samples.

Results

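Neural stem/progenitor cells (NSPCs) in G1 phase were examined by single-cell RNA sequencing (scRNA-seq), against the S and G2/M phase cells of the same cultures. G1 NSPCs were chosen by the cell cycle phase in the authors' per-cell table, and 132 of the 304 cells carried this phase, 81 on plate 1 and 51 on plate 2. The NSPCs came from the subventricular zone (SVZ) of C57/Bl6 male mice of 6 to 8 weeks, several of which were pooled, and had grown for at least 5 passages as neurospheres, with 20 ng/ml EGF and 20 ng/ml FGF-2 to keep them dividing. All of them belonged to 1 retrovirally infected line in which GFP, the green fluorescent protein, is fused to PLIN2, a coat protein of lipid droplets (LDs), so that neither plate is an independent line. From both ends of the GFP signal, 25% of the cells each were sorted as low PLIN2-GFP and as high PLIN2-GFP, 1 cell per well, into 2 plates of 384 wells, and no untreated or uninfected group belongs to the comparison. On plate 1, G1 NSPCs comprised 49 cells of the low and 32 of the high PLIN2-GFP category, and on plate 2 there were 31 and 20 of them. S phase had 41 and 36 cells and G2/M phase 57 and 38 cells on plates 1 and 2.

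G1 is the interval between division and DNA replication, in which a cell responds to growth factors and either commits to another cycle or leaves it. D-type cyclins, made in response to growth factors, activate CDK4 and CDK6, which phosphorylate the retinoblastoma family, and the E2F transcription factors released from it switch on the genes of DNA replication. Inhibitors such as p27 and the INK4 proteins hold these kinases back. In adult NSPCs, lengthening of G1 and exit into quiescence accompany the arrest of stem cells in the niche, and a quiescent cell (G0) also lacks S and G2/M transcripts. G1 and G0 NSPCs therefore cannot be told apart here.

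The phase was assigned by the authors from the same counts, with an S score and a G2/M score per cell that each measure a list of marker genes against control genes. A cell is given phase G1 when both scores are below 0, so G1 NSPCs are the remainder of a scale and not a type with positive marks of its own. Among the 132 G1 NSPCs, the larger of the 2 scores was above -0.05 in 22 cells and below -0.2 in 55 cells. In 11 of the 172 S and G2/M NSPCs, the larger score was under 0.05. The S score was the larger in 86 G1 NSPCs and the G2/M score in 46. A repeat of the scoring on the deposited counts placed 129 of the 132 cells in G1 again. The scoring genes, 99 of which were tested, are left out of every count and value that follows. Other genes of replication and mitosis move with the scoring genes, so their low levels in G1 NSPCs are not independent of how the cells were chosen and are given as a description.

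**Figure D1:**
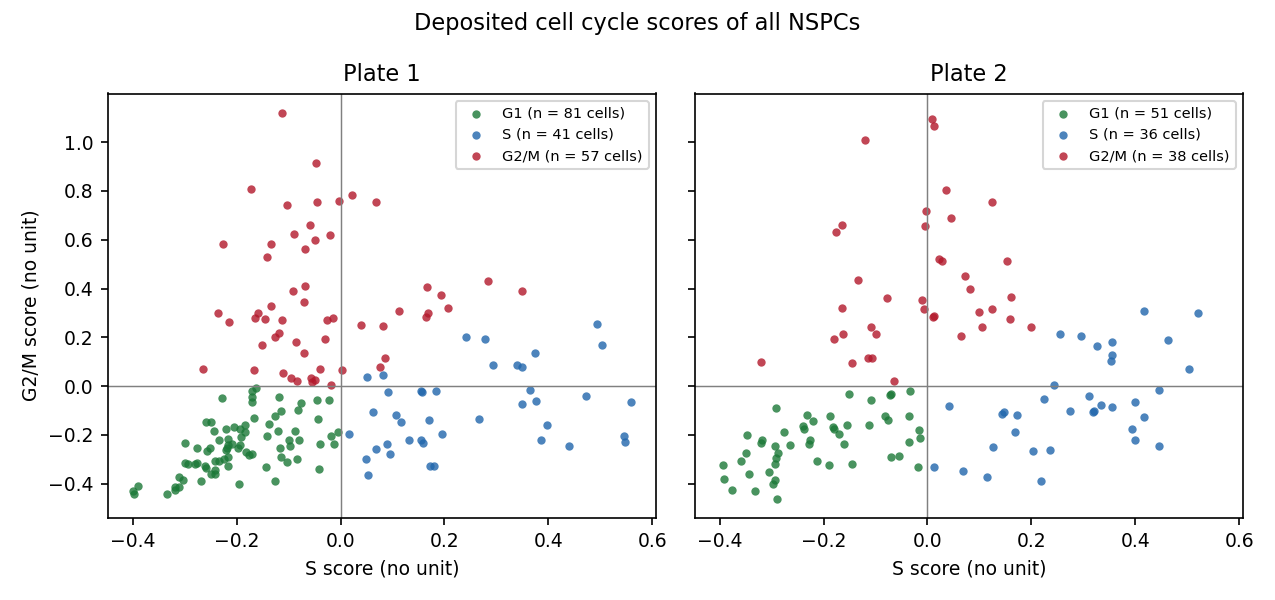
The deposited S score (horizontal axis) and G2/M score (vertical axis) of each cell, without unit, on plate 1 (left) and plate 2 (right), with 1 point per cell coloured by phase. The 81 and 51 G1 NSPCs fill the lower left corner, and 22 of them lie within 0.05 of its border.

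The promoters of 4 genes are shown as picked examples of motifs that are counted below, and they do not represent the genes that were lower in G1 NSPCs. The CDE/cell cycle homology region element, in short CHR, is bound by the MuvB complex, which represses mitotic genes in G0 and G1 and activates them later, often beside a CCAAT box bound by NF-Y. E2F sites are bound by E2F factors with the retinoblastoma family. *Prc1* (a microtubule bundling protein of the dividing cell) carries a CHR, *Pclaf* (a PCNA-binding protein of the replication fork) and *Rbl1* (p107, of the retinoblastoma family) carry E2F motifs, and *Mxd4* (a MAX partner that opposes MYC) was among the genes higher in G1 NSPCs. Each run covers 150 bases before to 10 bases after the transcription start, from RefSeq for GRCm38.p6, with matches to the CHR, E2F or CCAAT motifs in capitals.
*Prc1*, chr7:80294301-80294460, plus strand: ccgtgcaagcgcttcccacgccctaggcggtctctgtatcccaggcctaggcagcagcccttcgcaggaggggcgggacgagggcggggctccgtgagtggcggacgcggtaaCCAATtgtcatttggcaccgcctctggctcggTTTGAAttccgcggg
*Pclaf*, chr9:65890173-65890332, plus strand: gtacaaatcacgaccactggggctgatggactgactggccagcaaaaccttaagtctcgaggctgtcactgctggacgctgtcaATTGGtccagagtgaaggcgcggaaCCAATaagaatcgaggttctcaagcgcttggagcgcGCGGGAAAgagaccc
*Rbl1*, chr2:157204525-157204684, minus strand: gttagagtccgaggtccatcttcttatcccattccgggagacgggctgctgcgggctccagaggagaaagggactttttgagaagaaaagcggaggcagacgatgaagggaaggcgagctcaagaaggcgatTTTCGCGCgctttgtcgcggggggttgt
*Mxd4*, chr5:34187701-34187860, minus strand: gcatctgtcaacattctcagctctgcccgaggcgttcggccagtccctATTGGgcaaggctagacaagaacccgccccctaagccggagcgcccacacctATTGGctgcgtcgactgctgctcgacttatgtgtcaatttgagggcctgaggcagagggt
In *Prc1*, the CHR begins 5 bases and the CCAAT box 37 bases before this start. A second start of the gene is not shown, and for having it *Prc1* is outside the motif shares given below. The E2F motif begins 5 bases before the start in *Pclaf* and 18 bases before it in *Rbl1*, while *Mxd4* has only CCAAT boxes read on the other strand. Other lower genes looked up lacked such sites. The promoters of *E2f1* and *Tk1* held no match to any of these motifs, and that of *Ccnb1* held only CCAAT.

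By their median per cell, G1 NSPCs held fewer UMIs (unique molecular identifiers, each of which marks 1 captured transcript) than the other cells of each plate, though hardly so among low PLIN2-GFP cells of plate 1. On plate 1, the UMIs per G1 NSPC ranged from 1170 to 22349 with a median of 8290, beside medians of 10994 in S and 9565 in G2/M. On plate 2, they ranged from 1305 to 25325 with a median of 9825, beside 15301 in S and 12902 in G2/M. The median of G1 NSPCs was thus 0.816 and 0.687 times that of the other cells, a mean ratio of 0.751 ± 0.091 (SD, n = 2 plates). Within the low category, the ratio was 0.983 on plate 1, where the median of 7856 in G1 lay above the 7258 of G2/M and below the 8902 of S, and 0.679 on plate 2. Within the high category, it was 0.758 and 0.838. G1 held 51.6% of the low and 38.1% of the high cells on plate 1, and 43.1% and 37.7% on plate 2. With categories pooled, both plates showed the lower value, but an exact paired permutation test over 2 plates cannot go below p = 0.5. Fewer genes were detected as well, with ratios of 0.87 and 0.796 to the other cells. After random thinning of all cells to 5000 UMIs, for which 45 cells (21 of them in G1) had too few, these ratios rose to 0.961 and 0.954.

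Mitochondrial transcripts took a larger share of the UMIs in G1 NSPCs. On plate 1, the median share was 14.0% in G1 NSPCs, beside 11.8% in S phase and 11.9% in G2/M phase, and on plate 2 it was 13.8%, 11.3% and 11.8%. G1 NSPCs lay 2.11 and 2.22 percentage points above the other cells. A mitochondrial share of 20% or more was found in 11 cells, 5 of them in G1.

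**Figure D2:**
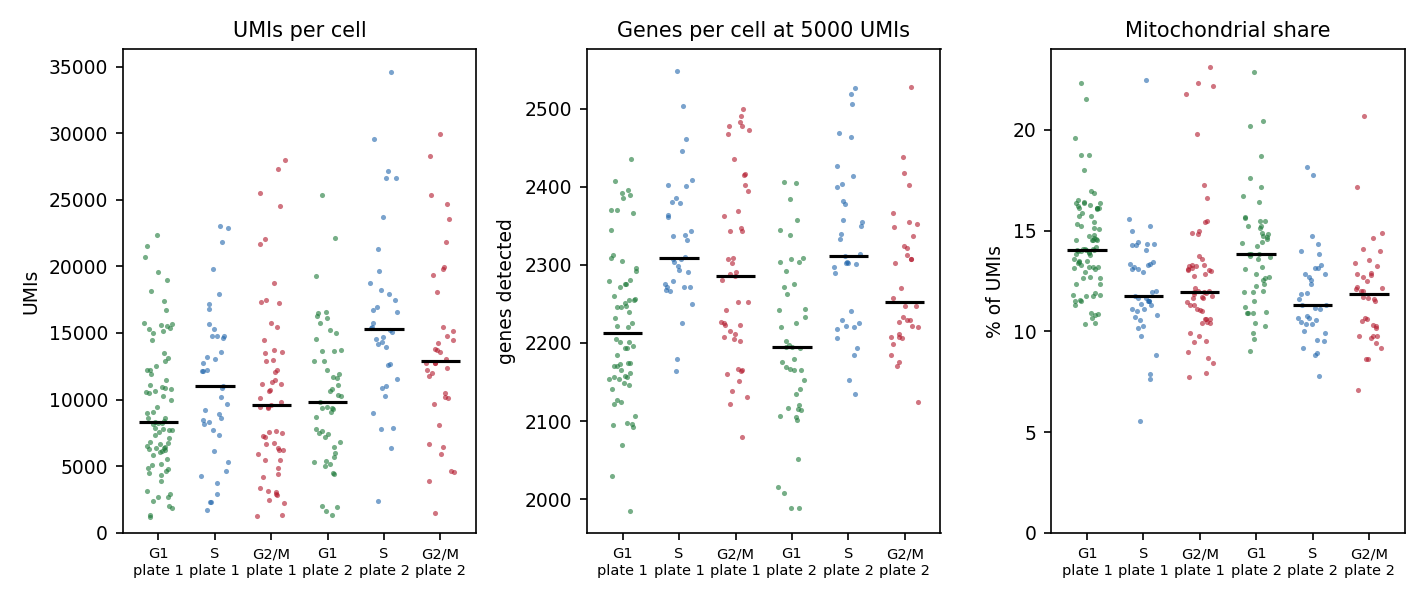
UMIs per cell (left), genes detected per cell after thinning to 5000 UMIs (centre, axis not from 0) and mitochondrial share of the UMIs in % (right), by phase and plate, with 1 point per cell and a bar at the median. G1 NSPCs have the lowest median UMIs, 8290 and 9825, and the highest median mitochondrial share, 14.0% and 13.8%, on both plates.

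G1 NSPCs made up 45.3% of the 179 cells on plate 1 (95% exact binomial interval 37.8% to 52.8%) and 40.8% of the 125 cells on plate 2 (32.1% to 49.9%). These intervals cover counting error only. In the authors' clustering, G1 NSPCs were spread over both clusters. They were 41 of 92 cells in cluster 0 and 40 of 87 in cluster 1 on plate 1, and 27 of 63 and 24 of 62 on plate 2.

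The labelled cell type was checked against markers of NSPCs and of other cells. *Vim*, an intermediate filament of neural stem cells, was detected in 100% of G1 NSPCs, and *Fabp7*, the fatty acid binding protein of radial glia, in 99.2%. *Nes* was detected in 61.4%, *Hes1* in 54.5% and *Sox2*, a transcription factor that keeps neural stem cells undifferentiated, in 18.2% of G1 NSPCs. The 3 neuronal markers measured were scarce, with 18 counts of *Rbfox3*, 1 of *Syt1* and 0.5 of *Snap25* over all 132 G1 NSPCs. *Pecam1* and *Flt1* of endothelial cells had 2 and 5 counts, and the microglial markers looked up were absent from the genes with counts. Astrocyte markers were not uniformly scarce. *Gfap* had 0.5 counts, but *Aldh1l1* had 106 and was detected in 45.5% of G1 NSPCs, *S100b* had 30 (12.1% of cells) and *Aqp4* had 11 (6.82%), beside 80, 7 and 3 counts in S and 62, 2 and 2 in G2/M. *Olig1* and *Olig2*, which dividing SVZ progenitors and cells of the oligodendrocyte lineage share, were detected in 100% and 99.2% of G1 NSPCs.

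Counts were summed per plate and phase into 6 sums of 460184 to 767257 UMIs, since cells of 1 plate are not independent replicates. G1 was compared with the mean of S and G2/M, with S and with G2/M in 1 fit by edgeR's quasi-likelihood test with the plate as a block. Levels are given in CPM, counts per 1000000 of the normalised library. Fold changes are relative to the normalised library of each sum, so a gene can be higher in G1 NSPCs by share while its UMIs per cell are not. Of the 7551 genes tested, 619 (8.20%) were higher and 616 (8.16%) lower in G1 NSPCs than in the mean of S and G2/M at an adjusted p under 0.1. Against S phase alone, 371 (4.91%) were higher and 477 (6.32%) lower in G1 NSPCs. Against G2/M alone, 545 (7.22%) were higher and 593 (7.85%) lower. In both of these comparisons, which share the G1 cells, 218 genes were higher and 288 lower. Of the 1235 genes called against the mean, a choice that itself favours agreement between plates, 1229 had the same direction on both. The number rests on the method, as DESeq2 called 88 higher and 167 lower, and without the plate as a block 267 were higher and 386 lower. With library sizes alone in place of TMM factors, the split was 443 higher and 714 lower.

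**Figure D3:**
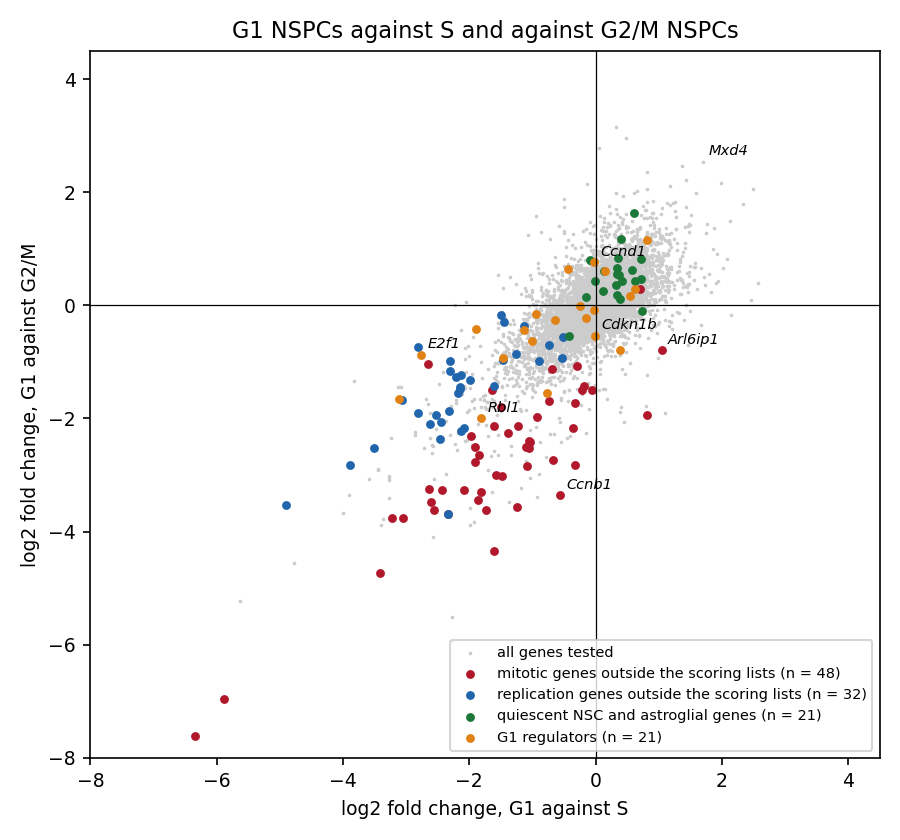
Log2 fold change of each tested gene in G1 against S (horizontal axis) and in G1 against G2/M (vertical axis), with 4 gene lists coloured and 7 genes named. Mitotic genes lie lowest on the vertical axis, with a median of -2.58 against G2/M, and replication genes furthest left, with a median of -2.17 against S.

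The 3 genes given as marks of G1 did not move alike. *Ccnd1* (cyclin D1, ENSMUSG00000070348.5, GRCm38 chromosome 7, 144929931 to 144939925) was at 1041 and 666 CPM in the G1 sums of plates 1 and 2, at 961 and 760 in S and at 564 and 442 in G2/M. On each plate, G1 thus lay above G2/M, while it lay above S on plate 1 and below it on plate 2. The log2 fold change of *Ccnd1* was 0.37 ± 0.09 (SE) against the mean of both (adjusted p = 0.00497), -0.02 against S (adjusted p = 0.93) and 0.76 against G2/M (adjusted p = 7.69e-06). In the G1 NSPCs thinned to 5000 UMIs, *Ccnd1* was detected in 98.5% of cells on plate 1 and 86.7% on plate 2.

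*Ccnd2* (cyclin D2, chromosome 6, 127125162 to 127152193) was at 2850 and 2161 CPM in G1, at 2255 and 2218 in S and at 1694 and 1576 in G2/M. It was higher than in the mean of both by 0.38 ± 0.07 (log2, SE, adjusted p = 0.000308) and than in G2/M by 0.61 (adjusted p = 4.65e-06), and its difference from S was 0.16 (adjusted p = 0.274). Without the G1 sum of plate 1, neither cyclin passed, with log2 fold changes of 0.18 (adjusted p = 0.56) for *Ccnd1* and 0.19 (adjusted p = 0.3) for *Ccnd2*, so both calls rest on that sum.

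*Cdkn1b* (chromosome 6, 134920401 to 134925513) encodes the CDK inhibitor p27, a protein that accumulates in resting cells. The protein was not measured, and the *Cdkn1b* mRNA was not called higher in G1 NSPCs. It was at 134 and 166 CPM in G1, at 165 and 136 in S and at 223 and 206 in G2/M. Both G1 sums lay below both G2/M sums, and G1 and S overlapped. The log2 difference was -0.28 ± 0.15 (SE) against the mean (adjusted p = 0.272), -0.01 against S and -0.54 against G2/M (adjusted p = 0.0366). All 3 genes thus passed the test against G2/M, and 0 of them passed against S.

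Of 26 regulators of G1, 21 were tested, and 2 were higher and 7 lower in G1 NSPCs than in the mean of S and G2/M, with a median log2 fold change of -0.28 beside 0.03 over all genes tested. The 2 higher ones were the D-type cyclins above. Their partner *Cdk4* was at 986 and 1102 CPM in G1 and at 1020 to 1207 CPM in the other sums, which overlapped, and did not pass (adjusted p = 0.716). *Ccnd3*, the other D-type cyclin, was at 16.5 and 18.4 CPM and did not pass (adjusted p = 0.92).

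Of the 7 E2F factors and their DNA-binding partners tested, which act after the D-type cyclins, 4 were lower against the mean. The G1 sums of plates 1 and 2 held few counts of *E2f1* (10 and 4) and *E2f2* (4 and 1), so their fold sizes are uncertain. *E2f1* was at 13.7 and 8.19 CPM in G1, at 79.2 and 75.5 in S and at 23.8 and 17.7 in G2/M, so that both G1 sums lay below the 4 others. Its log2 fold change was -2.76 against S (adjusted p = 8.46e-06) and -0.87 against G2/M (adjusted p = 0.283). *E2f2* was at 5.49 and 2.05 CPM in G1 beside 28.6 and 48.0 in S, and fell by 2.39 on the log2 scale against the mean (adjusted p = 0.00669), but not without the G1 sum of plate 2 (adjusted p = 0.21). *E2f3* fell by 0.82 (adjusted p = 0.0524), a call that was lost without either G1 sum (adjusted p of 0.37 and 0.23). *Tfdp1*, the DNA-binding partner of the E2F factors, was at 34.3 and 34.8 CPM in G1 and at 57.8 to 108 CPM in the other sums (log2 fold change -1.20, adjusted p = 0.00133). *E2f5*, *E2f6* and *Tfdp2* did not pass, with log2 differences of -0.20, -0.13 and -0.45.

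*Cdk2*, the kinase of cyclin E, was at 57.6 and 49.2 CPM in G1 and at 119 and 113 in S (log2 fold change -1.13, adjusted p = 0.00226), while its difference from G2/M was -0.44 (adjusted p = 0.322). Against the mean, its call (-0.78, adjusted p = 0.0139) was lost without the G1 sum of plate 1 (adjusted p = 0.21). *Ccne1*, cyclin E1, was at 11.0 and 6.14 CPM in G1 and at 39.6 and 25.7 in S, lower against S by -1.89 (adjusted p = 0.0194) but not past the threshold against the mean (adjusted p = 0.144). *Cdc25a*, the phosphatase that activates CDK2, was lower than in S by -0.94 (adjusted p = 0.0667) and did not pass against the mean (adjusted p = 0.242).

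Among the retinoblastoma family, *Rbl1* (chromosome 2, 157145893 to 157204534), whose promoter with an E2F motif is printed above, was at 20.6 and 8.19 CPM in G1, at 52.8 and 54.9 in S and at 64.6 and 59.0 in G2/M. Both G1 sums, of only 15 and 4 counts, lay far below the 4 others, and the log2 fold change was -1.91 ± 0.33 (SE, adjusted p = 0.000136). *Rbl2* (p130), the family member of resting cells, was at 83.7 and 41.0 CPM in G1 and at 29.2 to 59.5 CPM in the other sums, which overlapped (log2 difference 0.45, adjusted p = 0.234).

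The inhibitors of the CDK4 and CDK6 kinases diverged. *Cdkn2c* (p18) was at 64.5 and 73.7 CPM in G1, at 132 and 101 in S and at 211 and 187 in G2/M, and was lower in G1 by -1.16 (log2, adjusted p = 5.58e-05). *Cdkn2b* (p15) was at 35.7 and 20.5 CPM in G1 and at 5.9 to 18.7 CPM in the other sums, above all of them on both plates, but the difference of 0.99 did not pass (adjusted p = 0.106). *Cdkn2a* and *Cdkn1a*, the latter the p53 target p21, did not pass, with log2 differences of 0.36 (adjusted p = 0.53) and -0.19 (adjusted p = 0.203).

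Of the MuvB core, which binds CHR promoters, *Lin54* and *Lin9* were lower in G1 NSPCs among the 4 members tested. Their G1 sums held few counts, 6 and 6 of *Lin54* and 6 and 7 of *Lin9* on plates 1 and 2. *Lin54*, the subunit that binds the DNA, was at 8.23 and 12.3 CPM in G1 and at 39.3 to 59.4 CPM in the other sums (log2 fold change -2.20, adjusted p = 0.000136). *Lin9* had a log2 fold change of -1.81 (adjusted p = 0.00166), and *Rbbp4*, a histone-binding subunit shared with other complexes, one of -0.27 that did not pass (adjusted p = 0.42).

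**Figure D4:**
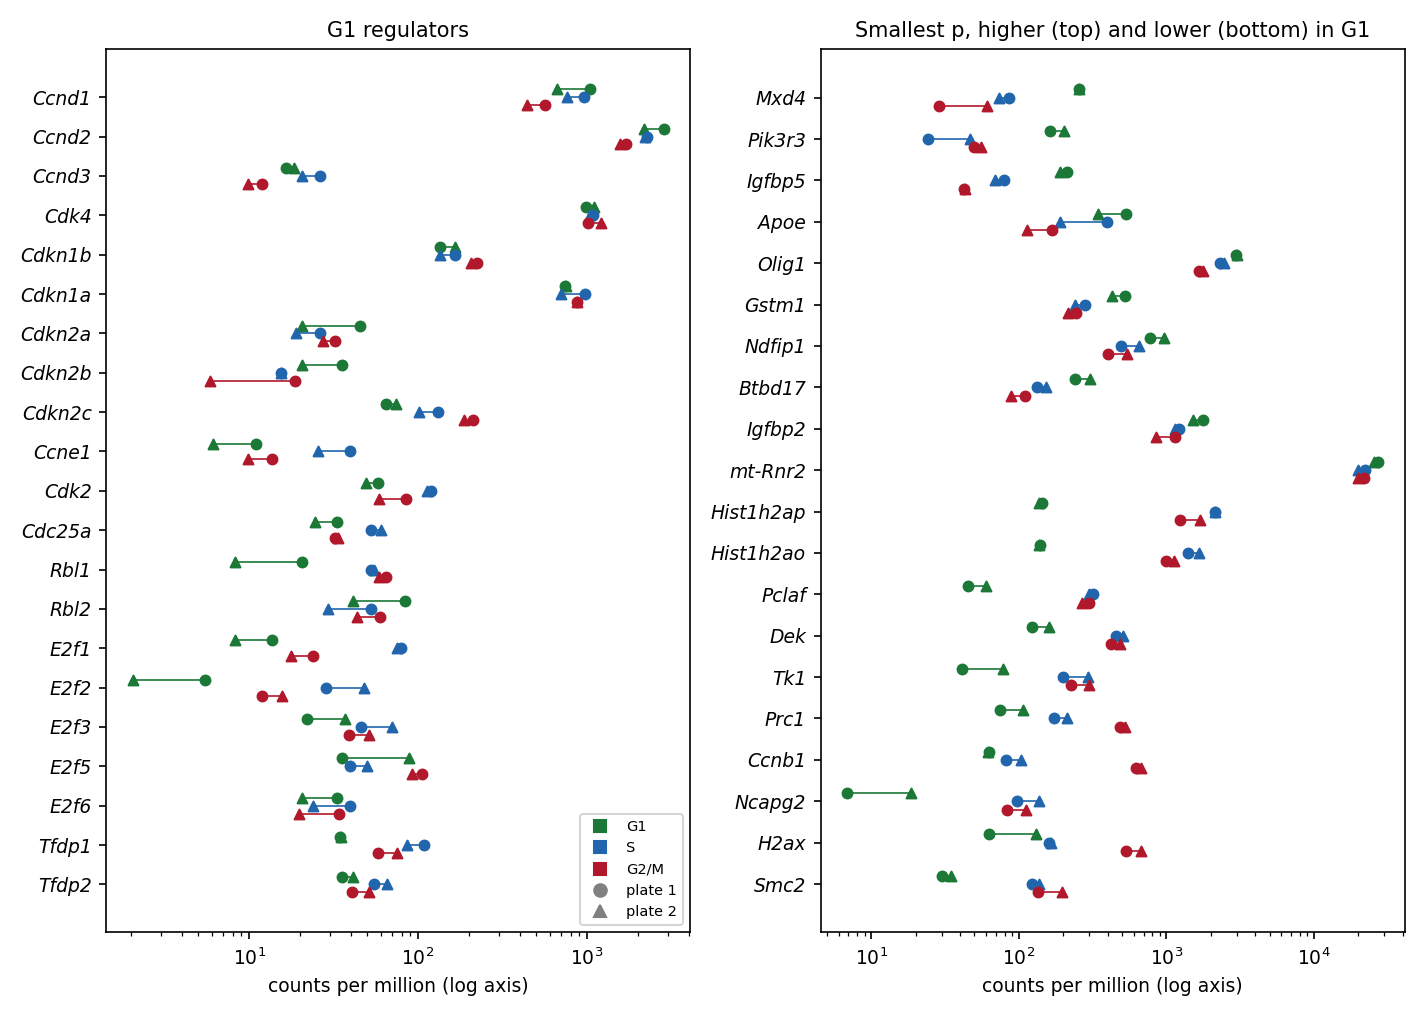
Level in CPM (log axis) of the 21 tested G1 regulators (left) and of the 10 higher and 10 lower genes of smallest p (right), by phase (colour) and plate (circle for plate 1, triangle for plate 2), with a line joining the 2 plates. Both G1 sums of *Rbl1*, *E2f1*, *E2f2* and *Tfdp1* lie to the left of the 4 other sums.

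The gene with the smallest p among those higher in G1 NSPCs was *Mxd4* (chromosome 5, 34173883 to 34187720), a MAX partner that opposes MYC. It was at 257 and 254 CPM in G1, at 85.8 and 73.8 in S and at 28.9 and 60.9 in G2/M. The G1 sums were far above the others on both plates, and the log2 fold change was 2.12 ± 0.17 (SE, adjusted p = 1.35e-09). In cells thinned to 5000 UMIs, it was detected in 60.6% and 66.7% of G1 NSPCs. *Pik3r3*, a regulatory subunit of PI3 kinase, was at 163 and 201 CPM in G1, at 24.2 and 46.3 in S and at 49.3 and 55.0 in G2/M (log2 fold change 2.07 ± 0.19, adjusted p = 8.62e-09).

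*Igfbp5* and *Igfbp2*, which encode secreted binding proteins of insulin-like growth factors, were among the 10 higher genes of smallest p. *Igfbp5* was at 211 and 188 CPM in G1 beside 42.5 to 79.2 CPM in the other sums (log2 fold change 1.83 ± 0.17, adjusted p = 1.13e-08). *Igfbp2* was at 1768 and 1512 CPM in G1 beside 851 to 1223 CPM (log2 fold change 0.60, adjusted p = 1.83e-06). *Apoe*, the apolipoprotein of astroglia, was at 531 and 342 CPM in G1, at 396 and 189 in S and at 167 and 114 in G2/M, so that the sums overlapped between plates while G1 was the highest phase on each plate (log2 fold change 1.12, adjusted p = 2.01e-07). *Gstm1*, a glutathione transferase, rose by 0.97, *Ndfip1*, an adaptor of ubiquitin ligases, by 0.75, *Btbd17* by 1.17 and *Olig1* by 0.56 on the log2 scale, each with both G1 sums above the 4 others. Such a separation was found for 993 of the 7551 genes (13.2%).

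The genes with the smallest p among those lower in G1 NSPCs were 2 histone genes. *Hist1h2ap* was at 143 and 137 CPM in G1, at 2123 and 2119 in S and at 1242 and 1698 in G2/M, and *Hist1h2ao* at 140 and 137 CPM beside 998 to 1664 CPM. Both encode histone H2A of nearly the same sequence, so the division of counts between these copies is uncertain. *Pclaf* was at 45.3 and 59.4 CPM in G1 beside 267 to 319 CPM (log2 fold change -2.53), and *Tk1*, thymidine kinase, at 41.2 and 77.8 beside 200 to 297 CPM (-2.13). *Dek*, a chromatin protein, fell by 1.73, *H2ax*, the histone marked at DNA breaks, by 1.74, and the condensin genes *Smc2* and *Ncapg2* had log2 fold changes of -2.15 and -3.14. The G1 sums of plates 1 and 2 held only 5 and 9 counts of *Ncapg2*.

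*Ccnb1* (cyclin B1) and *Prc1*, whose CHR promoter is printed above, separated G1 NSPCs from G2/M more than from S. *Ccnb1* was at 63.1 and 61.5 CPM in G1, at 81.4 and 103 in S and at 622 and 676 in G2/M. Its log2 fold change was -3.36 against G2/M (adjusted p = 2.41e-15), and its difference from S, -0.56, did not pass (adjusted p = 0.137). *Prc1* was at 74.1 and 107 CPM in G1, at 172 and 211 in S and at 486 and 525 in G2/M, and was lower than in either phase (-1.11 and -2.51). Neither gene is independent of the G2/M score by which the cells were chosen.

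By lists, 43 of the 48 tested mitotic genes outside the scoring lists were lower in G1 NSPCs and 0 higher, with a median of -1.91. Of 32 replication genes outside the scoring lists, 31 were lower and 0 higher, with a median of -1.79, and 20 were lower without the G1 sum of plate 1. Relative to S, 34 mitotic genes were lower, among them *Bub3* of the spindle checkpoint (-0.69). *Topbp1*, which helps to fire replication origins, and *Dnmt1*, which copies DNA methylation to new strands, were lower against the mean by -1.22 and -1.82. Neither list is independent of the phase scores.

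Motifs were counted in the 300 bases from 250 before to 50 after the start, on both strands, for genes with 1 promoter in the table. The CHR motif (TTTGAA or TTCGAA) was found in 12.7% of the 4722 tested genes with 1 promoter, in 24.6% of 406 genes lower in G1 NSPCs and in 9.71% of 350 genes higher in G1. When only the last 100 bases around the start were read, these shares were 2.96%, 13.8% and 0.571%. Among genes lower than in G2/M but not called against S, 30.7% of 199 held a CHR, beside 12.4% of 137 genes lower than in S but not called against G2/M.

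The E2F motif (TTTGGCGC, TTTCGCGC or GCGGGAAA) was found in 4.38% of the tested genes, in 12.3% of the genes lower in G1 and in 2.29% of those higher. Here the order of the phases was the other way, with 15.3% of the genes lower than in S only and 5.53% of those lower than in G2/M only. CCAAT was found in 39.9% of the tested genes, in 51.5% of the lower and in 43.7% of the higher genes. No motif of one kind holds one of another kind, and 10 of the 406 lower genes held both CHR and E2F. Over all 22862 genes with 1 promoter, CHR was found in 19.8%, E2F in 1.90% and CCAAT in 38.2%. These shares are descriptions without a test, and a match is not a bound site. The lower gene sets include genes that move with the scoring genes. Their CHR and E2F shares, also by phase, are therefore not independent of how the cells were chosen.

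Genes of quiescent neural stem cells and astroglia were higher in G1 NSPCs for 12 of 21 tested members, with 0 lower and a median log2 fold change of 0.42. *Ptn*, which encodes the secreted growth factor pleiotrophin, was at 2068 and 1956 CPM in G1, at 1689 and 1479 in S and at 1421 and 1333 in G2/M (log2 fold change 0.45 ± 0.07, adjusted p = 2.73e-05). The glutamate transporter gene *Slc1a3* was at 1620 and 1751 CPM in G1 and at 1168 to 1350 CPM in the other sums (0.42, adjusted p = 0.000136). *Dbi*, an acyl-CoA binding protein, was higher by 0.26 (adjusted p = 0.00942), though not without the G1 sum of plate 2 (adjusted p = 0.19). Without the G1 sum of plate 1 or of plate 2, 10 members were higher in either case. The astrocyte marker *Aldh1l1* did not pass (log2 difference 0.37, adjusted p = 0.268), and the 4 astrocyte markers together took 128 and 93.5 of every 1000000 UMIs in the unnormalised G1 sums, 102 and 73.8 in S and 58.0 and 60.6 in G2/M. The part of differentiating astrocytes in the list was not tested.

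Of 5 NSPC markers, *Fabp7* and *Vim* were called higher, by 0.17 (adjusted p = 0.0744) and 0.22 (adjusted p = 0.018). Neither held in all fits. *Fabp7* was not called without the G1 sum of plate 2 (0.07, adjusted p = 0.76), nor without either G2/M sum (adjusted p of 0.17 and 0.2) or the S sum of plate 2 (adjusted p = 0.25). *Vim* was not called without the G1 or the G2/M sum of plate 1 (adjusted p of 0.35 and 0.2). *Nes* was at 291 and 207 CPM in G1 and 354 and 319 in S, lower against S by -0.44 (adjusted p = 0.0489), and *Hes1* and *Sox2* did not pass.

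In the oligodendrocyte lineage list, 5 of 10 tested genes were higher and 0 lower, with a median of 0.37. They were *Olig1*, *Olig2*, *Ptprz1*, *Bcan* and *Epn2*. *Olig1* (chromosome 16, 91269772 to 91271933) was at 2939 and 3009 CPM in G1, at 2299 and 2462 in S and at 1652 and 1767 in G2/M, a graded order in which no phases overlapped. *Olig2* was at 1509 and 1309 CPM in G1 and 952 to 1175 CPM in the other sums (log2 fold change 0.48, adjusted p = 5.69e-05). *Cspg4* (NG2), a marker of oligodendrocyte precursors, was at 13.7 and 30.7 CPM in G1 and 27.2 to 41.2 CPM elsewhere and did not pass (adjusted p = 0.21). Without either G1 sum, 3 genes of the list stayed higher.

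Neuronal commitment genes were divided, with 3 higher and 4 lower of 14 tested and a median of 0.09. *Sox4* was at 842 and 836 CPM in G1 and at 499 to 693 CPM in the other sums (0.56, adjusted p = 9.23e-05), and *Hes6* (0.54) and *Btg2* (0.53), an antiproliferative gene, were also higher. *Stmn1*, which encodes a microtubule-destabilising protein needed in dividing cells as well, was at 425 and 649 CPM in G1 and at 739 to 1060 CPM elsewhere (-0.65, adjusted p = 4.13e-05). *Basp1* (-1.04) and *Sox11* (-0.47) were lower too. *Tcf4* did not pass (log2 difference 0.15, adjusted p = 0.314). Without either G1 sum, 2 genes of the list were higher and 2 lower.

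Genes that respond to EGF and FGF were higher for 10 of 19 tested members, with 0 lower and a median of 0.30. *Fos*, an immediate early gene, was at 508 and 385 CPM in G1, at 288 and 379 in S and at 233 and 232 in G2/M (0.69, adjusted p = 0.000281), but was not called without the G1 sum of plate 1 (0.34, adjusted p = 0.3). *Spry4*, a feedback inhibitor of receptor tyrosine kinases, was at 379 and 418 CPM in G1 beside 238 to 295 CPM (0.54, adjusted p = 0.00131). *Spry2* (0.30, adjusted p = 0.0881) was not called without any 1 of the 6 sums (adjusted p of 0.11 to 0.66). Without the G1 sum of plate 1 or plate 2, 3 or 5 members of the list were higher.

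Of 12 Notch pathway genes tested, *Jag1* (0.98), *Nrarp* (0.69) and *Lfng* (0.41) were higher and 0 lower, with a median of 0.31. *Lfng*, a glycosyltransferase that modifies Notch, was at 214 and 223 CPM in G1 beside 134 to 208 CPM (adjusted p = 0.0509). It was not called without the G1, the G2/M or the S sum of plate 1 (adjusted p of 0.63, 0.17 and 0.17), and without the plate as a block 0 genes of the list were called. *Jag1* was lost without the G1 sum of plate 1 (adjusted p = 0.622), which left 1 member higher, and *Nrarp* without that of plate 2 (adjusted p = 0.599), where the median of the list fell to 0.10. *Notch3* did not pass (0.32, adjusted p = 0.252).

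Of 15 p53 targets, 4 were higher, *Ccng1* (0.32), *Btg2* (0.53), *Sesn1* (0.91) and *Trp53inp1* (0.59), with 0 lower. *Ccng1* was at 394 and 490 CPM in G1, at 317 and 283 in S and at 384 and 438 in G2/M, and passed against S (adjusted p = 0.00777) but not against G2/M (adjusted p = 0.722). Against the mean (adjusted p = 0.0531), it was not called without the G1 sum of plate 2 (adjusted p = 0.6), the G2/M sum of plate 1 (adjusted p = 0.15) or the S sum of plate 2 (adjusted p = 0.3). *Bax*, a mediator of apoptosis, did not pass (adjusted p = 0.214). Without the G1 sum of plate 2, 0 genes of the list were higher, and its median fell from 0.23 to 0.02. With library sizes alone in place of TMM factors, 1 was higher and 1 lower.

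In energy metabolism, 11 of 13 mitochondrially encoded mRNAs were higher in G1 NSPCs, with a median of 0.31, beside the larger mitochondrial share of the UMIs given above. *mt-Cytb*, a subunit of complex III, was at 20896 and 21858 CPM in G1, at 17180 and 16037 in S and at 17405 and 17704 in G2/M (0.32, adjusted p = 8.08e-06). *mt-Co2* and *mt-Nd4*, of complexes IV and I, rose by 0.32 and 0.31, and the mitochondrial ribosomal RNA *mt-Rnr2* by 0.33 (adjusted p = 1.92e-06). When mitochondrially encoded genes were left out before normalisation, 1221 of the 1222 other calls against the mean remained.

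Glycolytic enzymes were higher for 7 of 15 tested members, with 0 lower and a median of 0.35. *Aldoa*, the aldolase gene, was at 1154 and 1094 CPM in G1 and at 765 to 1014 CPM in the other sums (0.37, adjusted p = 0.00245). *Pkm*, which encodes pyruvate kinase, rose by 0.23 (adjusted p = 0.00988), and *Pgk1* did not pass (0.22, adjusted p = 0.118). *Pkm* and *Aldoa* were not called without the G1 sum of plate 2 (adjusted p of 0.14 and 0.1), and without the plate as a block 1 gene of the list was called. Without the G1 sum of plate 2, 4 members were higher and *Gapdh* was lower (-1.38, adjusted p = 0.011), whose log2 difference was -0.42 with all sums (adjusted p = 0.453) and 0.60 without the G1 sum of plate 1 (adjusted p = 0.474).

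Genes of sterol and fatty acid synthesis were lower for 7 and higher for 1 of 28 members, with a median of -0.23. *Idi1*, of the isoprenoid pathway, was at 307 and 305 CPM in G1, at 330 and 484 in S and at 428 and 509 in G2/M (-0.49, adjusted p = 0.00445). *Scd2*, the desaturase that makes monounsaturated fatty acids, went the other way, with 2935 and 2927 CPM in G1 and 2160 to 2777 CPM elsewhere (0.26, adjusted p = 0.00441). *Hmgcs1* had a log2 difference of -0.01 (adjusted p = 0.978). Both calls were lost without the G1 sum of plate 2, with adjusted p of 0.33 for *Idi1* and 0.19 for *Scd2*, and 2 members of the list were lower when either G1 sum was left out. Without the plate as a block 1 member was lower, and DESeq2 called 0.

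Of 11 LD genes tested, *Lpin1* (0.80), *Mgll* (0.88) and *Pnpla2* (0.75) were higher and *Acsl3* (-0.50) lower. *Lpin1*, a phosphatase that makes diacylglycerol, was at 183 and 240 CPM in G1 and at 101 to 131 CPM in the other sums (adjusted p = 0.000414). *Mgll* and *Pnpla2* encode lipases that release fatty acids from stored lipid. Without the G1 sum of plate 1, neither was called (adjusted p of 0.356 and 0.221), and *Pnpla2* was also lost without that of plate 2 (adjusted p = 0.545). *Acsl3*, which activates fatty acids at the LD surface, was at 145 and 129 CPM in G1 and at 182 to 224 CPM elsewhere (adjusted p = 0.0252), and was not called without the G1 sum of plate 2 (adjusted p = 0.37). *Plin2*, whose protein carries the GFP in this line, was at 56.2 and 45.1 CPM in G1, at 39.6 and 30.9 in S and at 64.6 and 27.5 in G2/M and did not pass (adjusted p = 0.53). *Soat1* did not pass either (adjusted p = 0.649).

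Cytosolic ribosomal protein genes barely differed, with *Rpl39* higher (0.28), *Rpl14* lower (-0.32) and a median of 0.02 over 77 tested. *Rpl41*, *Rps2* and *Rpsa*, those with the most counts, had log2 differences of 0.07, -0.05 and -0.02.

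**Figure D5:**
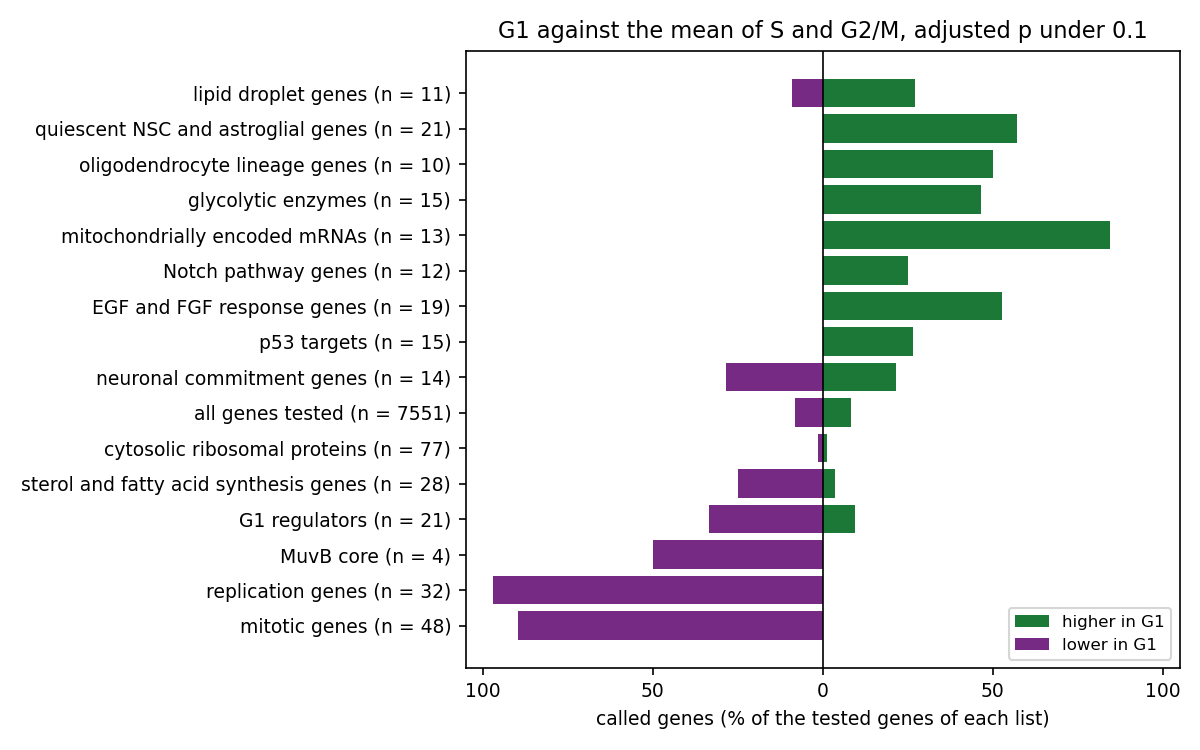
Share of the tested genes of each list (in %) that were higher (right) or lower (left) in G1 NSPCs than in the mean of S and G2/M at an adjusted p under 0.1, with the number tested and the lists ordered by median log2 fold change. Mitotic and replication genes lie at the bottom, with 43 of 48 and 31 of 32 lower, and 8.20% and 8.16% of all genes tested were higher and lower.

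The interaction of PLIN2-GFP category and phase was tested in 12 sums. It asks whether the difference of G1 from the mean of S and G2/M differs between high and low cells. Low and high G1 NSPCs were not tested against each other. Of 6069 genes tested, 0 (0.00%) were called by edgeR, with 297 at an unadjusted p under 0.05, and DESeq2 also called 0, with 38 at that level. *Ccnd1* was at 993 and 657 CPM in low and at 1184 and 709 CPM in high PLIN2-GFP G1 NSPCs of plates 1 and 2 (interaction adjusted p = 0.991). In low cells alone, 381 genes of 5380 tested were higher and 349 lower in G1 than in the mean of S and G2/M. In high cells alone, these were 238 and 283 of 5534. The wells of the categories lay in different rows, 0 of which held both, so that row and category cannot be told apart.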

How the data were processed

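SORT-seq, a plate-based form of CEL-Seq2, was run on single sorted NSPCs. Reads were assigned by the authors with Salmon (alevin) to the mouse genome GRCm38, and cells were kept on mitochondrial percentage and doublet detection. The authors deposited estimated counts (expected counts) of UMIs for 15046 genes in 304 cells, without normalization. The table of cells deposited by the authors gives the total count, how many genes were detected (a count), mitochondrial and ribosomal fraction and percent, scores for doublets and for the S and G2/M programmes, phase, plate, category and cluster. The versions of Salmon and of the annotation are not given in the sources used here. Columns of the count table were joined to cells by total and number of genes, and 0 columns were left unjoined. The number of well barcodes on both plates was 59, as the plates share a layout.

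Counts were summed per plate and phase, rounded, and tested with edgeR 4.0.16 in R 4.3.3 by its quasi-likelihood test, with filterByExpr, TMM normalization and the plate as a block. The Benjamini-Hochberg adjustment ran over 7551 genes, and genes under 0.1 are called. The study also set 0.1, but on Bonferroni-corrected p-values of a rank sum test over cells, which is another criterion. The fit leaves 2 residual degrees of freedom and had a common dispersion of 0.00443. Standard errors were taken as the size of the log2 fold change over the root of the F statistic. The plate pairs the sums, since all phases of a plate come from 1 library, and deviations of same-plate sums correlated at 0.185 to 0.217 over 7650 genes. With the plate as a block, p-values rest on how far the differences between phases vary between 2 plates of 1 line. That spread is estimated partly from all genes together, and the spread between lines is not measured. Scoring genes (100 in the table, from Seurat 5.3.0) stayed in the fit but out of the adjustment.

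The gene lists, the members and the rule for named genes were chosen with earlier results of these data known. The named genes are 3 marks of G1, all tested G1 regulators, 5 NSPC markers, the called genes of smallest p (10 higher and 10 lower against the mean, 5 and 5 against each phase), the same way on both plates, and the 3 members with the most counts of each other list. Other genes are named where 5 or fewer of a list were called or for comparison, after their values were seen, and some members of the lists are not reported here by name. Alternatives were no block, DESeq2 1.42.0, limma voom (3.58.1), other scalings, filters and thresholds, 12 sums, thinned cells, cells near the phase border or mitochondrial genes left out, phases scored again, each category alone, and each sum or plate left out. The fits were tested on simulated data. Python 3.11.15, pandas 2.3.3 and scipy 1.17.1 were used. Coordinates are from GENCODE M21, which held 83 of the 84 named genes, and promoters from RefSeq.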

Additional observations from a re-analysis of the deposited data

How the results depend on the processing

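The number of genes called moved with the processing more than their direction did. The genes were chosen as called in the same counts that each alternative refits, so a kept direction is not independent support. Against the mean of S and G2/M, S and G2/M, 1235, 848 and 1138 genes were called. Without the plate as a block, the numbers were 653, 335 and 544, and DESeq2 called 255, 115 and 236. Cells thinned to 5000 UMIs gave 530, 298 and 485 calls, with 4177 genes left to test. Low PLIN2-GFP NSPCs alone gave 730, 539 and 569 calls, and high ones 521, 268 and 555, with 5380 and 5534 genes left to test. At an adjusted p under 0.01, 490, 268 and 445 genes were called. With 1 sum left out, 595 to 1077 genes were called against the mean, 368 to 932 against S and 595 to 1179 against G2/M. Without the G1 sum of plate 1 or plate 2, 595 and 678 genes were called against the mean, 496 and 443 against S and 595 and 740 against G2/M. Without the S sum, 381 and 368 were called against S, and without the G2/M sum, 691 and 634 against G2/M. The lone sum of a phase is then assumed to vary like the others. Of the 1235 genes, all 1235 kept their direction without the block and under DESeq2, limma voom and both other scalings, and 1228 and 1233 did so without the G1 sum of plate 1 and of plate 2. Of 57 named genes called, 34 were called in each alternative with a test, and 0 changed direction in 1243 alternatives, of which 96 missed the threshold. Of 27 named genes not called, *Cdkn2b* and *Pgk1* passed in 5 alternatives each, *Cdkn1a* in 3, *Sox2* and *Cspg4* in 2 each, and *Hes1* and *Notch3* in 1 each, which makes 19 of 570. Some of the 27 changed sign in alternatives with a test. These were *Ccnd3* (-0.10) without the G1 sum of plate 2, *Cdk4* (0.00) and *Rpl41* (-0.01) in high cells, *Cdkn2a* (-0.17) without the G1 sum of plate 1, *E2f5* without the G1 (0.38) or G2/M sum (0.09) of plate 1, *Rps2* without the S sum of plate 1 (0.01) or the G2/M sum of plate 2 (0.00), and *Hmgcs1* without cells near the phase border (0.01), in low cells (0.01), and without the G2/M sum of plate 1 (0.08), the G1 sum of plate 2 (0.02) or the S sum of plate 2 (0.09). Without the plate as a block and under DESeq2, 28 and 16 replication genes and 42 and 33 mitotic genes were lower, and 9 and 6 quiescent or astroglial genes, 3 and 3 oligodendrocyte lineage genes, 5 and 2 EGF and FGF response genes, 1 and 0 p53 targets, 0 and 0 Notch genes, 1 and 2 glycolytic enzymes and 2 and 1 LD genes were higher. With each plate or sum left out in turn, *Ccnd3* ranged from -0.11 to 0.36, *Cdkn2a* from -0.17 to 0.65, *E2f5* from -0.90 to 0.38, *Hmgcs1* from -0.12 to 0.09 and *Rps2* from -0.14 to 0.01. By plate 1 and plate 2 alone, the log2 difference of *E2f5* was -0.83 and 0.37, and that of *Cdkn2a* 0.60 and -0.14. That of *Ccnd3* was -0.11 and 0.33, and that of *Hmgcs1* 0.03 and -0.03. The ratio of genes detected was 0.833, and 0.957 when thinned, and the mitochondrial difference was 2.16 points, 2.28 without cells near the border and 1.91 in high cells. With 1 plate left out, the ratio of UMIs was 0.687 or 0.816, that of genes 0.796 or 0.87, and the mitochondrial difference 2.22 or 2.11 points. Some alternatives left fewer cells, sums or genes, and the cause of these shifts was not tested.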

Other observations

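Of the genes called both against S and against G2/M, 1 gene was higher in G1 NSPCs than in S and lower than in G2/M. *Arl6ip1*, which encodes a membrane-shaping protein of the endoplasmic reticulum, was at 232 and 205 CPM in G1, at 134 and 78.9 in S and at 420 and 336 in G2/M on plates 1 and 2. G1 NSPCs lay between the other phases on both plates, with log2 fold changes of 1.05 against S (adjusted p = 0.000313, edgeR) and -0.80 against G2/M (adjusted p = 0.000263). The gene stands in the list of mitotic genes, in which it did not pass against the mean (adjusted p = 0.641). *Pttg1* (securin) of the same list was at 74.1 and 115 CPM in G1, at 55.0 and 60.0 in S and at 71.4 and 80.6 in G2/M, and was higher than in S (log2 fold change 0.70, adjusted p = 0.0867).

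The reverse order was also found for 1 gene. *Apln*, which encodes the peptide apelin, was at 140 and 77.8 CPM in G1, at 143 and 225 in S and at 47.6 and 53.1 in G2/M. Its level in G1 lay next to that of S on plate 1 and well below it on plate 2, and the log2 fold changes were -0.71 against S (adjusted p = 0.0473) and 1.18 against G2/M (adjusted p = 0.00567). Both genes were chosen after their values were seen.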
